A study of Mus musculus with 53 samples.

Results

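Inert-guide tumours are lung tumours started by lentiviral vectors whose sgRNA targets a neutral sequence or none in the genome, so that their growth reflects the genotype of the mouse and not the loss of a further gene. They were taken as the entries labelled Inert in the mice that received the pooled vectors and were followed for 15 weeks, which gave 91281 of the 335123 tumours of these 35 mice and of the 409584 tumours of all 53 mice. There were 39940 inert tumours in 10 KTC mice, 39164 in 12 KPTC mice and 12177 in 13 KLTC mice. By the usual naming of such strains, all 3 groups carry a fluorescent reporter and a Cas9 allele that Cre switches on, and the P and L alleles let the same Cre delete p53 and Lkb1. The labels give no age, and Cre came from virus delivered through the trachea, so the alleles change where the virus enters cells of the lung. Inert vectors were mixed with vectors against 11 tumour suppressor genes, and the inert tumours therefore shared their lungs with tumours that had lost those genes. The table merges all inert sgRNAs under 1 label.

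p53 is a transcription factor that stress such as DNA damage switches on, and it holds back the progression of lung adenomas to adenocarcinoma. Lkb1 is the kinase that activates AMPK and its relatives, and its loss is known to speed the growth of lung tumours in mice. A tumour whose cells divide at a constant rate with many small independent effects has a size that follows a log-normal distribution over tumours, and rare further events in single tumours can give a heavier right tail.

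Each tumour is identified by its vector's barcode, which is listed as 21 letters with 15 variable positions set between fixed pairs. The barcodes of the largest inert tumour of each genotype and of the barcode found in the most 15-week mice are shown because the sizes of the largest tumours, and the listing of 1 barcode in several mice, bear on all values that follow. They are written in the direction of the table, with the variable positions in capitals.
KTC, replicate 6, 2538311 cells: aaTGATCttTGATTaaTTGGG
KPTC, replicate 7, 13548827 cells: aaCGTGAttGTCCAaaAAGAC
KLTC, replicate 10, 12474392 cells: aaAGGATttTCATGaaTTATG
Listed in 24 mice, largest at 13307 cells: aaTGGTTttTACGGaaCATTA
The KTC barcode was listed in 7 other mice at 543 to 3595 cells. The KPTC barcode was listed in 14 other mice at 562 to 19828 cells, and the KLTC barcode in 16 other mice, 4 of them of 9 weeks, at 541 to 139654 cells. Among KLTC mice the last of these was also the inert barcode with the largest ratio of its largest to its smallest size, and its 11 KLTC values ran from 668 cells in replicate 2 to 139654 in replicate 9 and 12474392 in replicate 10. The barcode found in 24 mice had a median of 2287 cells and was listed in 6 KTC, 11 KPTC and 7 KLTC mice.

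Sharing of barcodes between mice was common among all inert tumours and nearly complete among the largest. Of 64895 distinct inert barcodes, 23.6% were listed in 2 or more of the 15-week mice. The barcode of 44.6% of KTC, 46.8% of KPTC and 63.9% of KLTC inert tumours was listed under Inert in another mouse. Here and below, other mice include those of 9 weeks given an inert vector. Among tumours of at least 1000000 cells this held for 12 of 12 in KTC, 36 of 37 in KPTC and 51 of 51 in KLTC, at a median of 6, 8 and 11 other mice. The largest size at which such a barcode was listed elsewhere was a median of 0.133%, 0.277% and 0.291% of the tumour of at least 1000000 cells, and no such barcode reached 1000000 cells in a further mouse. A tumour was called matched when the same barcode was listed at 10 times its size or more in another mouse. Matched tumours made up a median of 6.30% of a KTC mouse's inert tumours (range 4.35% to 17.1%), 7.65% in KPTC (4.35% to 8.68%) and 28.7% in KLTC (9.16% to 61.8%). In KLTC their share was 32.7% among tumours of 500 to 1000 cells and 5.76% among those of 10000 to 100000 cells. A larger tumour needs a larger listing elsewhere to be matched, so a fall with size is partly built into the rule. A genotype with more large tumours also offers more such listings. For 81.3% of the matched KLTC tumours, the largest listing of the barcode was in another KLTC mouse. What matched entries stand for was not tested, and the main results are given with and without them.

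The number of listed inert tumours, which is also the depth behind each mouse's values, was lowest in KLTC. KTC mice had 482 to 7195 of them (median 3957), KPTC mice 1069 to 8178 (median 2869) and KLTC mice 171 to 4279 (median 751). KLTC mice had fewer by a log2 difference of −2.06 ± 0.54 (SE) against KTC and −2.05 ± 0.37 against KPTC (adjusted p 0.00445 and 0.0003, two-sided permutation of mice, adjusted over 30 tests), and 12 of 13 KLTC mice lay below every KPTC mouse. KPTC and KTC differed by −0.01 ± 0.50 (adjusted p 0.979, permutation). The dose of virus per mouse is not in the labels, so number cannot be told apart from dose. The inert share of all listed tumours had medians of 26.6% in KTC, 27.6% in KPTC and 26.3% in KLTC. Their share of all listed tumour cells had medians of 18.3%, 21.5% and 24.8%.

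The median size of listed inert tumours did not pass the test between any pair of genotypes. Median sizes were 719 to 1431 cells in KTC mice (median over mice 1009), 787 to 2447 in KPTC (965) and 753 to 2848 in KLTC (1235), and the ranges overlapped throughout. The log2 differences were 0.06 ± 0.17 (SE) for KPTC against KTC, 0.25 ± 0.17 for KLTC against KTC and 0.20 ± 0.19 for KLTC against KPTC (adjusted p 0.832, 0.303 and 0.470, permutation). These medians lie close to the smallest listed inert sizes of 501 to 982 cells, which differ between mice. At a minimum of 1500 cells, above the smallest size of every mouse, the KLTC medians were higher by 1.02 ± 0.34 than in KTC and by 1.20 ± 0.34 than in KPTC (adjusted p 0.0155 and 0.0013), and the KPTC medians were lower than in KTC by −0.18 ± 0.07 (adjusted p 0.0331, permutation).

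Loss of Lkb1 by genotype went with a larger share of inert tumours at or above each of the 3 sizes tested, 5000, 100000 and 1000000 cells. In KLTC mice 6.74% to 43.2% of inert tumours reached 5000 cells (median 20%), against 4.15% to 16.3% in KTC (median 12.5%) and 4.21% to 20.6% in KPTC (median 6.80%). The difference from KTC was 10.6 ± 3.46 percentage points (SE, adjusted p 0.0197, permutation) and that from KPTC 12.1 ± 3.52 (adjusted p 0.0055). Tumours of at least 100000 cells made up 0.491% to 14.8% of inert tumours in KLTC (median 4.93%), 0.116% to 1.36% in KTC (median 0.570%) and 0% to 1.20% in KPTC (median 0.584%). Of the 13 KLTC mice 11 lay above every KTC and every KPTC mouse, while replicates 1 and 6, at 0.697% and 0.491%, lay within both ranges. The means were 7.34% ± 5.29 (SD, n = 13) in KLTC, 0.625% ± 0.370 (n = 10) in KTC and 0.581% ± 0.341 (n = 12) in KPTC. The KLTC mean was higher by 6.71 ± 1.47 percentage points than in KTC and by 6.76 ± 1.47 than in KPTC (adjusted p 0.0018 and 0.00036, permutation). KPTC and KTC differed by −0.04 ± 0.15 points (adjusted p 0.832). At 5000 cells they differed by −1.52 ± 2.05 points (adjusted p 0.615), and among tumours of at least 1500 cells the KPTC share was lower, at 25.4% against 31.9% (−6.46 ± 2.23 points, adjusted p 0.0148, permutation).

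As numbers of tumours per mouse the genotypes overlapped. A KLTC mouse had 2 to 105 inert tumours of at least 100000 cells (median 35), a KTC mouse 1 to 89 (median 23) and a KPTC mouse 0 to 66 (median 15.5). Over all mice, the tumours of at least 5000 cells numbered 4955 in KTC, 4191 in KPTC and 2072 in KLTC. Those of at least 10000 cells numbered 2656, 2201 and 1587, and those of at least 50000 cells 577, 492 and 904. At 100000 cells the numbers were 307, 275 and 650, at 500000 cells 46, 68 and 146, and at 1000000 cells 12, 37 and 51. KLTC thus had the fewest at the lower sizes and the most from 50000 cells upward, and KPTC passed KTC between 100000 and 500000 cells. The summed size of a mouse's inert tumours had a geometric mean of 12586282 cells in KTC (range 858363 to 52951876), 16691266 in KPTC (2012353 to 60977221) and 17713124 in KLTC (981242 to 66576408), and the ranges overlapped. The largest inert tumour of a mouse had 104500 to 2538311 cells in KTC (median 1260573), 91404 to 13548827 in KPTC (median 4012274) and 198662 to 12474392 in KLTC (median 2356829).

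The mice of each genotype fall into a pair of classes by ID prefix, whose meaning the labels do not give. KLTC has 7 IW and 6 ZR mice, KPTC 7 IW and 5 without a prefix, and KTC 8 IW and 2 MW. The 6 KLTC mice of prefix ZR had 4.65% to 14.8% of tumours at 100000 cells or more (median 12.3%), and the 7 of prefix IW had 0.491% to 12.9% (median 3.57%). No KTC or KPTC mouse of 15 weeks has the prefix ZR, so for those 6 mice genotype and prefix cannot be told apart. Among IW mice the mean was 4.18% in KLTC (n = 7) against 0.741% in KTC (n = 8) and 0.744% in KPTC (n = 7), and both differences passed (3.44 ± 1.61 and 3.43 ± 1.61 points, adjusted p 0.0204 and 0.0490, exact permutation). The share reaching 5000 cells was 15.8% in KLTC, 11.2% in KTC and 10.3% in KPTC among IW mice, and neither KLTC difference passed (4.66 ± 4.50 and 5.56 ± 4.71 points, exact adjusted p 0.543 and 0.534). The 6 ZR mice held 503 of the 650 KLTC tumours of at least 100000 cells. In IW mice such tumours numbered 305 in KTC, 217 in KPTC and 147 in KLTC. The numbers were 574, 387 and 238 at 50000 cells, 46, 58 and 38 at 500000, and 12, 31 and 17 at 1000000. KLTC replicate 4 alone held 22 of the 38 and 13 of the 17, and 3 of the 7 IW KLTC mice had any at 1000000. KLTC had the fewest at 50000, 100000 and 500000 cells, and fewer than KPTC at 1000000. Without matched tumours the KLTC mean at 100000 cells was 12.4% against 0.671% in KTC and 0.622% in KPTC (differences of 11.8 ± 3.05 for both, adjusted p 0.00332 and 0.00065, permutation). That filter takes out 3217 KLTC tumours, of which 1 had at least 100000 cells, so it raises the share by lowering the number it is taken over. In the same way the KLTC differences were 20.3 ± 5.57 and 22.0 ± 5.62 points at 5000 cells and 1.01 ± 0.345 and 0.949 ± 0.346 at 1000000 cells. Among tumours of at least 1500 cells they were 14.5 ± 2.62 and 14.8 ± 2.61 points at 100000 cells. The stricter filter that leaves out each barcode listed in any other mouse kept 202 of 1232 inert tumours of at least 100000 cells over the 3 genotypes, and the KLTC differences of 0.791 ± 0.458 and 0.756 ± 0.459 points then did not pass (adjusted p 0.312 and 0.279, permutation). This filter does not fall evenly on the genotypes. Of tumours of 100000 to 1000000 cells it takes out 94.7% in KLTC, 71.9% in KTC and 63.9% in KPTC.

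The tail exponent above 5000 cells was lower in KLTC than in both other genotypes, and this difference passed under every filter and alternative that was run for it. The tail exponent describes how fast the number of tumours falls with size above 5000 cells, a lower exponent standing for a heavier tail, and it does not depend on how many smaller tumours are listed. It was 0.346 to 0.910 in KLTC mice (median 0.441), 0.808 to 1.40 in KTC (median 0.922) and 0.753 to 1.18 in KPTC (median 0.945). Of the 13 KLTC mice 12 lay below every KTC mouse and 11 below every KPTC mouse, and replicate 6, the KLTC mouse with the most inert tumours, had the highest value. The differences were −0.47 ± 0.07 (SE) from KTC and −0.45 ± 0.06 from KPTC (adjusted p 0.0003 for both, permutation, with the KPTC comparison at the smallest unadjusted p that 100000 resamples can give, 1e-05). Among IW mice they were −0.34 ± 0.08 and −0.35 ± 0.09 (exact adjusted p 0.00777 and 0.0200), and without matched tumours −0.48 ± 0.07 and −0.46 ± 0.06. With no barcode listed in any other mouse they were −0.33 ± 0.09 and −0.39 ± 0.09 (adjusted p 0.0134 and 0.0030, permutation). KPTC and KTC differed by −0.02 ± 0.06 (adjusted p 0.832, permutation). A single exponent covers all sizes above 5000 cells and does not describe the far end of the tail. Of pooled tumours of at least 100000 cells, 51 of 650 reached 1000000 cells in KLTC, 37 of 275 in KPTC and 12 of 307 in KTC. That part was smaller in KLTC than in KPTC, which was not tested.

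The spread of all sizes was wider in KLTC as well. The SD of log2 size was 1.33 to 3.34 in KLTC mice (median 2.43), 1.06 to 1.65 in KTC (median 1.39) and 1.11 to 1.64 in KPTC (median 1.29), and 10 of 13 KLTC mice lay above every mouse of the other genotypes. It was wider by 1.03 ± 0.20 than in KTC and by 1.10 ± 0.20 than in KPTC (adjusted p 0.00129 and 0.0003, permutation). Among IW mice the differences were 0.64 ± 0.27, which missed the threshold, and 0.70 ± 0.27 (exact adjusted p 0.0504 and 0.0490). The log-normal mean, which joins the centre and the spread in 1 value, was 1824 to 70047 cells in KLTC (median 7932), 1179 to 3624 in KTC (median 2432) and 1360 to 5001 in KPTC (median 1823), with differences of 2.26 ± 0.54 and 2.34 ± 0.55 for KLTC on the log2 scale (adjusted p 0.00411 and 0.00135, permutation) that were 1.16 ± 0.72 and 1.15 ± 0.73 among IW mice and did not pass there (exact adjusted p 0.182 and 0.241). Without matched tumours these differences were 3.39 ± 0.77 and 3.48 ± 0.77, and with no barcode listed in another mouse 1.04 ± 0.39 and 1.08 ± 0.39, which missed the threshold (adjusted p 0.0749 and 0.0521, permutation).

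Loss of p53 by genotype went with more inert tumours of at least 1000000 cells, while the share of tumours at 100000 cells and the tail exponent did not pass. Such tumours were found in 10 of 12 KPTC mice and in 6 of 10 KTC mice, and numbered 37 of 39164 and 12 of 39940 inert tumours. A KPTC mouse had 0 to 8 of them (median 3) and a KTC mouse 0 to 3 (median 1). Their share was 0% to 0.211% in KPTC mice (mean 0.081% ± 0.059 SD) and 0% to 0.058% in KTC mice (0.023% ± 0.023), and 7 of 12 KPTC mice lay above every KTC mouse. The difference of 0.058 ± 0.019 percentage points (SE) passed (adjusted p 0.0137, permutation). It was 0.084 ± 0.021 among IW mice (exact adjusted p 0.00777), 0.062 ± 0.020 without matched tumours (adjusted p 0.0132) and 0.044 ± 0.017 without the largest tumour of each mouse (adjusted p 0.0445, permutation). By prefix, the mean share was 0.113% in the 7 IW KPTC mice and 0.037% in the 5 KPTC mice without a prefix. Those 5 held 6 of the 37 KPTC tumours. In KTC the mean was 0.029% in the 8 IW mice and 0% in the 2 MW mice. All of this rests on barcodes listed in several mice, since leaving those out keeps 1 of the 100 tumours of at least 1000000 cells, and the KPTC difference is then 0.0039 ± 0.0039 points. The 4 KTC mice with none allow shares of up to 0.047% to 0.622%, taken as 3 tumours of those listed, so the smaller of these libraries could not show a share like that of KPTC. In KLTC the share was 0% to 1.73% (mean 0.604% ± 0.654 SD, above 0 in 9 of 13 mice), higher than in KTC by 0.580 ± 0.182 points and than in KPTC by 0.522 ± 0.182 (adjusted p 0.0162 and 0.0225, permutation), and among IW mice by 0.427 ± 0.267 and 0.343 ± 0.268 (exact adjusted p 0.182 and 0.550).

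The largest 1% of inert tumours held a larger share of the inert cells in KPTC than in KTC. The largest tumour held 4.54% to 61.5% of a KPTC mouse's inert cells (median 15.8%), against 1.99% to 25.2% in KTC (median 7.27%) and 3.70% to 27.8% in KLTC (median 14.7%). In KPTC replicate 3, a single tumour of 6009052 cells held 61.5%. The number of tumours needed to reach 50% of the inert cells was 1 to 71 in KPTC (median 12), 6 to 178 in KTC (median 51.5) and 6 to 105 in KLTC (median 9), in mice that differ in their numbers of tumours as given above. The largest 1% of tumours held 29.0% to 77.3% of the inert cells in KPTC mice (median 63.7%), 16.5% to 60.2% in KTC (median 48.8%) and 26.3% to 58.2% in KLTC (median 37.6%). Of 12 KPTC mice 7 lay above every KTC mouse. KPTC was higher than KTC by 17.0 ± 5.71 percentage points (SE) and KLTC lower than KPTC by −22.1 ± 4.70 (adjusted p 0.0162 and 0.00115, permutation), while KLTC and KTC differed by −5.04 ± 4.78 (adjusted p 0.421).

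These shares depended on the choice of the top class. Without the largest tumour of each mouse the KPTC difference from KTC was 11.6 ± 5.48 points and missed the threshold (adjusted p 0.0869, permutation), and among IW mice it was 17.9 ± 4.03 (exact adjusted p 0.00777). With the largest 10 tumours in place of the largest 1%, KPTC was higher than KTC by 20.7 ± 6.30 points and KLTC was higher than KTC by 17.3 ± 6.16 (adjusted p 0.0115 and 0.0220), while KLTC and KPTC differed by −3.40 ± 5.90 (adjusted p 0.741, permutation). A fixed number of tumours is a larger part of the small KLTC libraries. With no barcode listed in another mouse, KPTC against KTC was 3.002 ± 4.03 points and KLTC against KPTC −7.33 ± 3.28 (adjusted p 0.694 and 0.107, permutation).

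Where the inert cells lay by tumour size was compared over the pooled tumours of each genotype. In pooled inert tumours, those of at least 100000 cells held 85.2% of the cells in KLTC, 61.9% in KPTC and 45.1% in KTC. Those of at least 1000000 cells held 34.5% in KLTC, 39.0% in KPTC and 9.43% in KTC. Tumours of 100000 to 1000000 cells held 50.7% in KLTC, 23.0% in KPTC and 35.7% in KTC. By mouse the share in this class was 26.3% to 73.6% in KLTC (median 52.3%, above 50% in 8 of 13), 0% to 51.3% in KPTC (median 21.5%) and 4.47% to 52.8% in KTC (median 32.9%), and the ranges overlapped. The pooled KLTC value was 48.8% without replicate 9, and among IW mice it was 39.4% in KLTC, 36.1% in KTC and 24.3% in KPTC. Without matched tumours, those of at least 100000 cells held 86.6%, 62.9% and 46.0% in KLTC, KPTC and KTC.

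A log-normal distribution with the mean and SD of each mouse's log sizes fell short of the observed tail in every KTC and KPTC mouse, and in KLTC the result depended on matched tumours. This fit took no account of the cut at the smallest listed size, which can by itself leave the fitted tail short. The observed 99th percentile was above the fitted one by a log2 ratio of 1.96 ± 0.36 (SD) in KTC, 1.76 ± 0.37 in KPTC and 1.88 ± 1.40 in KLTC, and it was above 0 in 34 of 35 mice. The exception was KLTC replicate 10, at −0.61. Without matched tumours the ratio was 1.98 ± 0.39 in KTC and 1.79 ± 0.39 in KPTC, again above 0 in each mouse. In KLTC it was then 0.90 ± 1.89 and below 0 in 6 of 13 mice, replicates 7 and 9 to 13, with −1.92 in replicate 12 as the lowest value. Fitted numbers at 100000 cells were 3.51, 2.98 and 250.1 over all KTC, KPTC and KLTC mice, against 307, 275 and 650 observed. The 3 differences between genotypes did not pass at the 500-cell minimum (adjusted p 0.338 for KPTC against KTC, 0.909 for KLTC against KTC and 0.832 for KLTC against KPTC, permutation). At a minimum of 1500 cells the ratio was 0.21 in KLTC, 1.81 in KTC and 2.27 in KPTC. KLTC was then lower than KTC by −1.61 ± 0.34 and than KPTC by −2.07 ± 0.32 (SE, adjusted p 0.00119 and 0.000162, permutation). These are means over mice, in which values above and below 0 can cancel, so they do not measure closeness to a log-normal shape.

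A log-normal cut off at the smallest listed size of each mouse gave 236, 168 and 315 tumours of at least 100000 cells in KTC, KPTC and KLTC, against the 307, 275 and 650 observed, but reached the limit set for its parameters in 6 of 10 KTC, 6 of 12 KPTC and 11 of 13 KLTC mice, so its parameters are not interpreted. Its numbers of tumours of at least 1000000 cells were 22.4 in KTC, 12.4 in KPTC and 78.6 in KLTC, against 12, 37 and 51 observed. The observed number was above the fitted one in KPTC only, which was not tested, and 4.77 of the 12.4 came from KPTC replicate 1. With this fit the log2 ratio at the 99th percentile was 0.60 ± 0.75 (SD) in KTC, 0.47 ± 0.49 in KPTC and 0.18 ± 2.31 in KLTC. It was above 0 in 8 of 10 KTC, 10 of 12 KPTC and 6 of 13 KLTC mice, and ran from −3.43 to 3.94 in KLTC.

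The shape of the tail above 5000 cells was described by a pair of curves. A power law, in which the logarithm of the number falls in a straight line with the logarithm of size, was compared in each mouse with a cut-off log-normal, which bends downward, by the Akaike criterion. The log-normal had the lower value in 13 of 13 KLTC mice, by over 2 units in 11. It was lower in 1 of 12 KPTC mice and in 4 of 10 KTC mice, by over 2 units in each of these. In the others the power law had the lower value, with power law minus log-normal no further below 0 than −2.44 units in KPTC and −2.09 in KTC. The log-normal has 1 parameter more and comes close to a power law as its SD grows, so the power law can lead by little more than the penalty for that parameter, and its lead does not show a power-law shape. These counts are a description, and they depend on how many tumours a mouse has above 5000 cells, which was 20 to 1068 for KTC mice, 50 to 1030 for KPTC mice and 22 to 343 for KLTC mice.

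The same genes lost through Cas9 in KTC mice, and guides that should add nothing, gave values to set beside the genotypes. In KTC mice, tumours with the P53 guide reached 1000000 cells in 21 of 15908 cases, a per-mouse mean of 0.103% ± 0.106 (SD, n = 10), above the inert tumours of the same mouse in 7 mice and level with them at 0 in 3. Their log-normal mean minus that of inert tumours was 0.06 ± 0.15 on the log2 scale (SD, n = 10). In KPTC mice, where the genotype already deletes the gene, P53-guide tumours had a mean share of 0.080% ± 0.089 at 1000000 cells, against 0.081% ± 0.059 for inert ones. Lkb1-guide tumours of KTC mice reached 100000 cells in 2.94% ± 1.37 of cases, above the inert tumours in 10 of 10 mice, and their tail exponent of 0.624 ± 0.138 was lower in 10 of 10. Inert KLTC tumours had 7.34% ± 5.29 and 0.502 ± 0.171, and Lkb1-guide tumours of KLTC mice 6.48% ± 4.89 and 0.492 ± 0.178. The Lkb1-guide tumours were below the inert ones of the same KLTC mouse in 9 of 13 mice at 100000 cells and in 10 of 13 by log-normal mean, and their mean share at 1000000 cells was 0.287% against 0.604%. In KPTC the P53-guide tumours were below the inert ones at 1000000 cells in 7 of 12 mice, above in 4 and level in 1, and below by log-normal mean in 9 of 12. The differences between guides were not tested here.

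At 9 weeks, mice given the single inert vector sgNeo had log-normal means of 1339 to 472495 cells in KLTC (n = 5) and of 1201 to 4128 cells in KPTC (n = 3), and the ranges overlapped. Tumours of at least 100000 cells numbered 255 of 8414 in KLTC and 32 of 8970 in KPTC. Each number came mostly or wholly from 1 mouse, with 188 of 337 tumours in KLTC replicate 5 of that arm and 32 of 4427 in KPTC replicate 2. Without those mice the numbers were 67 of 8077 over 4 KLTC mice, of which 2 had none, and 0 of 4543 over 2 KPTC mice.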

How the data were processed

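The authors deposited 1 table, in which each line gives a mouse, a target label, a barcode and an absolute number of cells per tumour. Barcodes were amplified by PCR from DNA of whole lungs and sequenced, 1 library per mouse, per the labels' protocols. How the cell scale was set, how reads were assigned to barcodes and whether small tumours were dropped is not stated in the sources at hand, and the table holds no read numbers, so no counting intervals were computed for sizes. Limits for a share of 0 cover counting error only. Genotypes were taken from the labels. An allele that all 3 genotypes share is not reported here. The members, measures and alternatives were chosen with earlier results of these data known.

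Tumours of 500 cells or more entered, which is every inert entry. In each mouse, 10 measures were computed from its inert tumours: number, median, log-normal mean (the exponential of mean log size plus 0.5 times its variance), SD of log2 size, the 99th percentile over that of the fitted log-normal, the percent reaching 5000, 100000 and 1000000 cells, the Hill estimate of the tail exponent above 5000 cells (with at least 10 tumours) and the share of cells in the largest 1% of tumours. The mouse was the replicate. Group means were compared with two-sided permutation tests of mouse labels, by 100000 resamples or, with a group under 10 mice, exact enumeration, and adjusted by Benjamini-Hochberg over 30 tests at a threshold of 0.05. Comparisons share mice and measures share tumours, so the tests are not independent. The labels name each library as 1 mouse. The only barcodes named are the largest of each genotype, the one listed in the most 15-week mice and the one with the widest KLTC range. For 2 pairs of mouse and barcode an inert entry was listed more than once, and all entries were kept. Alternatives changed the minimum size, the filter on barcodes listed in several mice, near-identical barcodes within a mouse, the largest tumour, the mice, the guides counted as control and the fits, and 1 chosen after seeing the data left out barcodes off the usual layout. The procedure was checked on simulated data. NumPy 2.4.6, SciPy 1.17.1 and pandas 2.3.3 were used in Python 3.11.15.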

Additional observations from a re-analysis of the deposited data

Results flagged for a closer look

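KTC replicate 10, a mouse of ID prefix MW with 865 inert tumours, stood apart from the other 9 KTC mice in both measures of the tail. Its tail exponent was 1.40, with the next highest at 1.02, and its 99th percentile exceeded the fitted log-normal by a log2 ratio of 1.11, with the next lowest at 1.73. The gap to the nearest mouse was 0.636 and 0.514 of the group's range, against a critical value of 0.466. Chance marks about 1 in 20 groups, and 10 measures were examined in KTC, the 1 genotype with few enough mice for the rule. Without this mouse the tail exponent of KPTC exceeded that of KTC by 0.028, and neither value passed the test.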

How the results depend on the processing

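Of 357 values under 15 alternatives, 295 kept their direction and side of the threshold, 21 lost their call, 12 gained one and 29 changed sign. In all tests below the values are differences of group means, on the log2 scale for number, median, log-normal mean, width and 99th-percentile ratio, in percentage points for shares. Unless a source of the change is named, the cause was not tested.

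At a minimum of 1000 cells, KPTC minus KTC changed sign for number (0.10), median (−0.11) and percentile ratio (0.40), and the share at 5000 cells gained a call (−4.80). KLTC minus KTC gained calls for the percentile ratio (−1.13) and the top 1% share (−11.0), and KLTC minus KPTC gained one for the median (0.86) and changed sign for the ratio (−1.53). At 1500 cells the KPTC minus KTC values were 0.034, −0.18, 0.46 and −6.46, KLTC minus KTC was 1.02 for the median, −1.61 for the ratio and −9.27 for the top 1%, and KLTC minus KPTC was 1.20 for the median and −2.07 for the ratio. At 5000 cells KPTC minus KTC changed sign for the median (−0.052), log-normal mean (0.19), width (0.16), ratio (0.67) and share at 100000 cells (0.51). KLTC minus KTC was −1.15 for number, no longer past the threshold, 1.90 for the median and −1.67 for the ratio, and KLTC minus KPTC was −0.84 for number and 1.78 for the share at 1000000 cells, both no longer past it, 1.96 for the median and −2.34 for the ratio.

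Without matched tumours the KLTC minus KPTC ratio changed sign (−0.89, in either version of the filter). Without any barcode listed in another mouse, a filter that leaves 1 of 100 tumours of at least 1000000 cells, KPTC minus KTC was 0.035 for the share at 100000 cells and 0.053 for the exponent, both changed in sign, and 0.0039 for the share at 1000000 and 3.002 for the top 1%, both past no threshold. KLTC minus KTC lost its calls for the log-normal mean (1.04) and the shares at 5000 (10.4), 100000 (0.79) and 1000000 cells (0). KLTC minus KPTC lost them for the log-normal mean (1.08), the share at 100000 cells (0.76) and the top 1% (−7.33), and changed sign for the ratio (−0.64) and the share at 1000000 (−0.0039). Without each mouse's largest tumour the KPTC minus KTC top 1% difference was 11.6 and lost its call.

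Among mice of prefix IW, with fewer mice, KPTC minus KTC changed sign for the log-normal mean (0.0027), share at 100000 cells (0.0038) and exponent (0.0085). KLTC minus KTC changed sign for the median (−0.10) and ratio (0.38) and lost its calls for the log-normal mean (1.16), width (0.64) and shares at 5000 (4.66) and 1000000 cells (0.43). KLTC minus KPTC changed sign for the median (−0.26) and lost its calls for the log-normal mean (1.15) and shares at 5000 (5.56) and 1000000 cells (0.34). Counting as controls the tumours whose guide targets the gene deleted by genotype (P53 in KPTC, Lkb1 in KLTC) turned KPTC minus KTC for number (0.39). KTC gained no tumours in this setting, so that turn follows from the setting itself. The cut-off log-normal turned the KLTC minus KPTC ratio (−0.28). With the largest 10 tumours, the KLTC minus KTC share changed sign (17.3) and the KLTC minus KPTC one lost its call (−3.40).

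Leaving out 1 mouse at a time moved no difference across the threshold in 700 values. Sign changes, all in differences that passed no test, came in KPTC minus KTC for number (−0.30 to 0.13), median (−0.052 to 0.11), share at 100000 cells (−0.10 to 0.038) and exponent (−0.040 to 0.028), and in the ratio of KLTC minus KTC (−0.29 to 0.14) and KLTC minus KPTC (−0.087 to 0.34). The genotypes are in different mice, so comparisons between them were unpaired. The labels carry no replicate numbers, and those used here follow the order in which the samples are listed. Depth limits the shares at 1000000 cells, since a mouse with few listed tumours could hold none by counting alone.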
